A study of Mus musculus with 17 samples.

Results

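The genes described here encode the nuclear subunits of the mitochondrial oxidative phosphorylation system. They were chosen by name: every probe set with a single gene symbol starting with Ndufa, Ndufb, Ndufc, Ndufs, Ndufv, Uqcr, Cox4 to Cox8 or Atp5, together with Sdha, Sdhb, Sdhc and Sdhd, and each gene is represented by its brightest probe set, averaged over the 17 arrays. This gave 90 of the 18194 genes on the array, and 88 of them were among the 13756 genes that passed the filter on low signal and were tested. Ndufb4 and Cox7b2 did not pass it, with log2 signals up to 4.79 and 3.73. Complex I held 34 of the 90 genes, complex II 4, complex III 8, complex IV 18 and complex V 17. The other 9, called associated genes below, are matched by the same names but encode assembly factors of complex I (Ndufaf1 to Ndufaf8) and Cox7a2l, a factor that joins complexes III and IV. Ndufa4 and its paralog Ndufa4l2 were counted with complex IV, where the Ndufa4 protein is now placed.

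RNA from the thymi of 17 C57Bl/6 mice was hybridized, 1 array per mouse. The study's methods name homogenized thymocytes as its source and describe no sorting for the arrays. The Tcf1+/- controls (n = 5) carried 1 wild-type and 1 ΔVII allele of the gene for Tcf1, a T-cell transcription factor of the Wnt pathway. The Tcf1-/- thymi (n = 4) and the thymic lymphomas (n = 8) both came from ΔVII/ΔVII mice, so these groups share the Tcf1 genotype. In the study's methods a Tcf1-/- thymus counted as a tumor from its cell number. The labels give no ages. Levels are log2 signals as deposited, a log2 difference is the difference between group means, and a gene is called higher or lower at an adjusted p under 0.05 (limma, two-sided, Benjamini-Hochberg over all genes tested).

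In the respiratory chain, complex I takes electrons from NADH and complex II takes them from succinate. Complex III passes them to cytochrome c and complex IV to oxygen, and complex V uses the proton gradient built up by complexes I, III and IV to make ATP. Complex II is also an enzyme of the tricarboxylic acid cycle and pumps no protons. Dividing thymocytes and lymphoma cells use both glycolysis and oxidative phosphorylation.

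Some properties of the arrays touch the results below. On 4 arrays, of Tcf1+/- and lymphoma mice numbered 1 and 2 (replicates 1 and 2 below), signals had a narrower range than on the other 13, and these 4 are called set apart. Their Gapdh 3′ control exceeded the 5′ control by 1.12 to 2.63 log2, against -0.13 to 0.96 elsewhere, and the interquartile range of all signals was 2.93 to 3.06 against 3.49 to 3.75. Of the calls described below, all 3 between Tcf1-/- thymi and controls were also made without these 4 arrays, as were 20 of 22 between lymphomas and Tcf1-/- thymi and 6 of 14 between lymphomas and controls. Y-linked signal was present in all 4 Tcf1-/- thymi and in 4 of 5 controls, but only in lymphoma replicates 4 and 6. The thymocyte markers Cd3e and Rag1 were well expressed in the controls, with means of 11.58 and 13.98, and in Tcf1-/- thymi Cd3e fell by 0.62 and Rag1 fell by 2.11. All 11 macrophage markers measured were higher in Tcf1-/- thymi than in controls, with a median difference of 2.46, and 10 of 11 were lower in lymphomas than in Tcf1-/- thymi. In RNA of mixed cells, fewer cells of a type and less RNA per cell cannot be told apart.

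**Figure D1:**
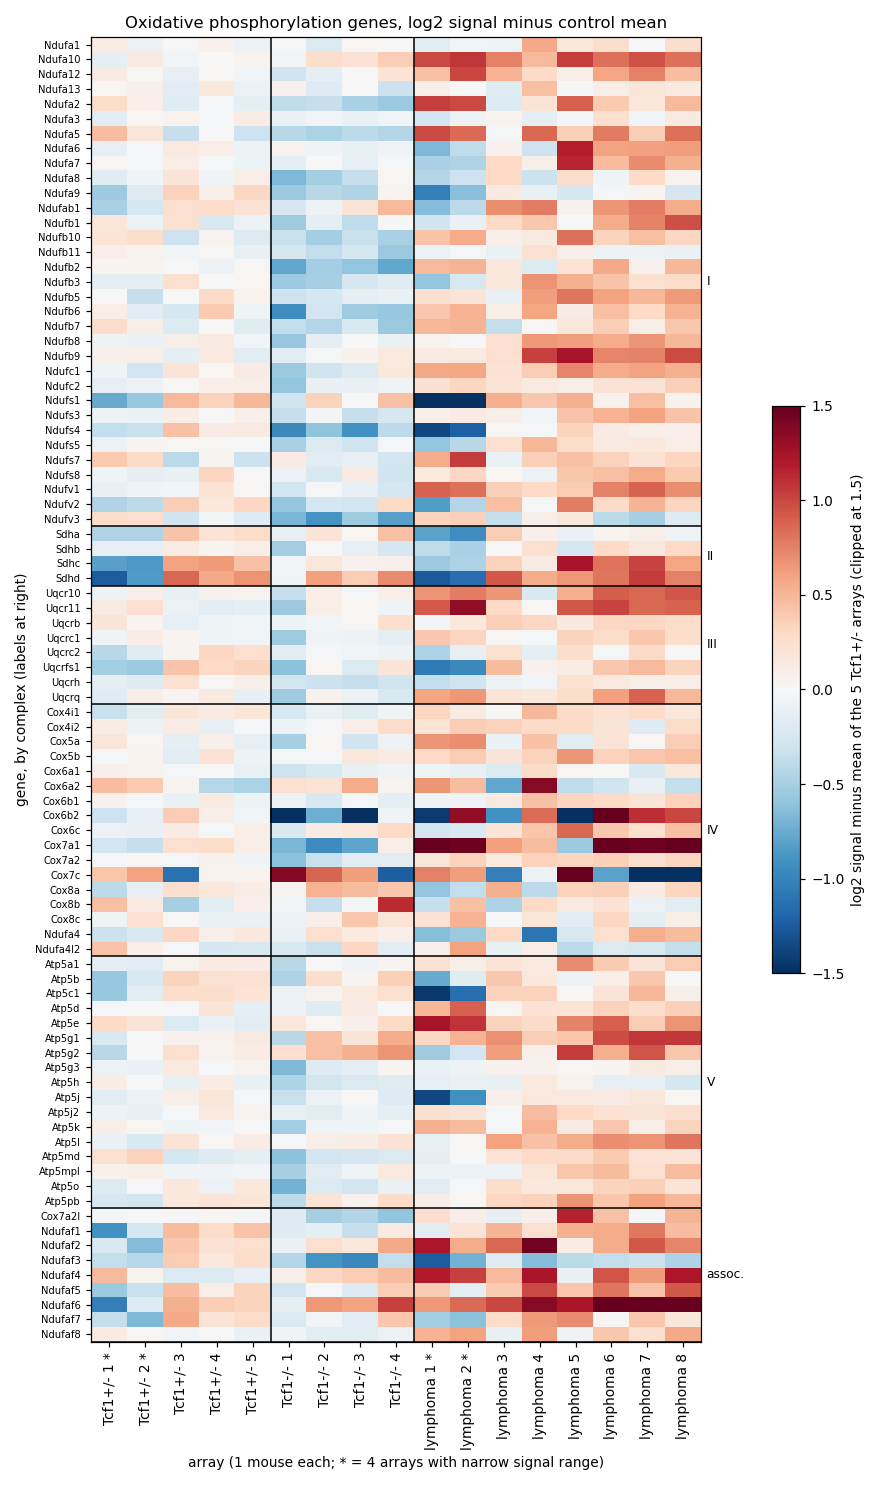
Log2 signal of the 88 tested genes (rows, by complex) in each of the 17 thymi (columns), minus the mean of the 5 Tcf1+/- arrays; colors are clipped at 1.5. Most complex I rows are blue in the 4 Tcf1-/- columns and red in most lymphoma columns, and Ndufs1, Sdhc and Sdhd are blue in the 4 starred arrays.

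Lymphomas were compared with Tcf1-/- thymi first, because both groups share the genotype. Complex I was the group with the most calls. Of 33 tested complex I genes, 15 were higher in lymphomas and none was lower, and 32 of 33 differences were above 0. Over the 88 genes, 22 were higher (25%) and none was lower, where 6.34% of all genes tested were called higher and 8.35% lower. The median difference was 0.52 for complex I and 0.38 for the 88 genes, against 0.10 for all genes tested. In 22 of the 88 genes every lymphoma lay above every Tcf1-/- thymus, where 4.41% of all genes tested showed this.

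Accessory subunits of the membrane arm of complex I were among the genes that rose. Ndufb2 had signals of 10.04, 10.32, 10.23 and 10.04 in the 4 Tcf1-/- thymi, and the 8 lymphomas ranged from 10.62 to 11.39 with a median of 11.17. The lymphomas lay wholly above the Tcf1-/- thymi, with a difference of 0.95 ± 0.17 (SE, adjusted p = 0.0021). The controls lay between, from 10.73 to 10.87, so that only the Tcf1-/- thymi were separate from both other groups on the low side. Ndufb6, another subunit of that arm, read 10.96, 11.60, 11.36 and 11.33 in Tcf1-/- thymi and 12.00 to 12.48 in lymphomas, a difference of 0.96 ± 0.16 (adjusted p = 0.0012) with no overlap. A second, dimmer probe set of Ndufb6 gave 0.38 (adjusted p = 0.37), so the size rests on the probe set. Ndufb10 rose by 0.81, Ndufc1 by 0.75, Ndufb5 by 0.64, Ndufb8 by 0.62, Ndufb7 by 0.61 and Ndufc2 by 0.44. A second probe set of Ndufb5 gave 0.20.

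Several subunits of the matrix arm were also called higher, and others were not. Ndufa5, an accessory subunit of the part that binds ubiquinone, lay within a narrow range in Tcf1-/- thymi (10.57, 10.51, 10.60 and 10.55) and between 10.96 and 11.98 in lymphomas, with a median of 11.79. The difference of 1.06 ± 0.19 (adjusted p = 0.0025) corresponds to 2.08-fold and was the largest within complex I. A second probe set of Ndufa5 gave 0.60. Ndufv1, the core subunit that binds NADH and flavin, read 10.99, 11.26, 11.15 and 11.03 in Tcf1-/- thymi and 11.57 to 12.16 in lymphomas, a difference of 0.80 ± 0.16 (adjusted p = 0.0043). All 3 probe sets of Ndufv1 gave differences between 0.75 and 0.86. Ndufv3 rose by 0.67, Ndufa2 by 0.94, Ndufa12 by 0.58 and Ndufs3, a core subunit, by 0.53. By their brightest probe set, other core subunits did not pass the test: Ndufs7 differed by 0.51, Ndufs8 by 0.40, Ndufv2 by 0.34 and Ndufs1 by -0.25. For Ndufv2 the probe sets disagreed, as the other 2 gave 1.08 (adjusted p = 0.00049) and 0.76 (adjusted p = 0.0038). Ndufs1 and Ndufv2 were among the genes with low signal in the 4 arrays set apart.

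Among the 8 complex III genes, Uqcr11, Uqcr10 and Uqcrq, which encode small subunits of the cytochrome bc1 complex, were higher in lymphomas. Uqcr11 read 10.54, 11.17, 11.12 and 11.03 in Tcf1-/- thymi and 11.12 to 12.42 in lymphomas, and 7 of 8 lymphomas exceeded every Tcf1-/- thymus. Its difference was 0.90 ± 0.23 (adjusted p = 0.019). Uqcr10 and Uqcrq both rose by 0.68. The call of Uqcr10 was lost in 11 of 12 fits that left out 1 array, and without the 4 arrays set apart (adjusted p = 0.070). The catalytic and core subunits differed by less and did not pass: Uqcrfs1, the Rieske iron-sulfur protein, by 0.13, Uqcrc1 by 0.45 and Uqcrc2 by 0.08. This contrast depended on the fit. Uqcrc1 was called higher in several alternatives, such as the mean of probe sets. Uqcrfs1 was called higher with the Gapdh 3′ minus 5′ difference as a covariate. On the arrays set apart Uqcrfs1 differed from the rest of its group by -0.89 in controls and -1.33 in lymphomas.

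Of complex IV 2 of 17 genes were higher, Cox7a1 and Cox7a2, and its median difference was 0.16. Of complex V 1 of 17 was higher, the small membrane subunit Atp5md, by 0.52 ± 0.14 (adjusted p = 0.025), although 13 of 17 differences were above 0 and the median was 0.35. The catalytic beta subunit Atp5b differed by -0.05 and the alpha subunit Atp5a1 by 0.40, and neither passed. Probe sets of some of these genes disagreed. Dimmer ones gave 1.02 for Cox6c (adjusted p = 0.024) and 1.10 for Atp5o (adjusted p = 0.0058), where the brightest gave 0.17 and 0.48. The other 2 probe sets of Atp5a1 gave 1.21 and -0.15. With the mean of probe sets 13 complex I, 4 complex IV and 3 complex V genes were called higher, against 5.95% of all genes. No complex II gene was called. Among the associated genes Cox7a2l rose by 0.73 ± 0.22 (adjusted p = 0.037), and all 9 differences were above 0.

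**Figure D2:**
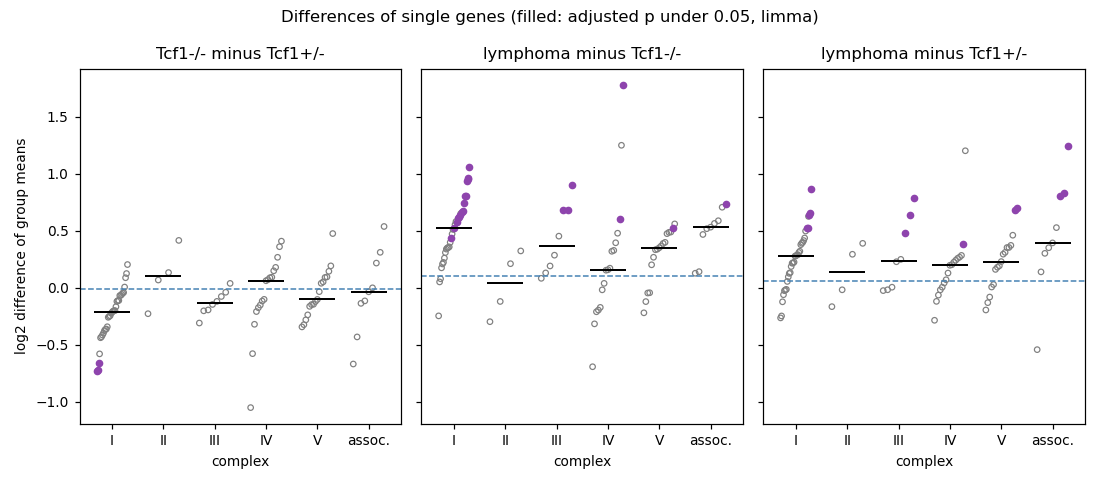
Log2 difference of group means (vertical axis) of each tested gene by complex in the 3 comparisons. Filled points have an adjusted p under 0.05, black bars are the medians of a complex, and the dashed line is the median of all genes tested. In the middle panel 15 of 33 complex I points are filled and none of the 4 complex II points is.

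How many genes were called in this comparison depended on single arrays. Without Tcf1-/- replicate 1, 2 or 3 the calls fell to 9, 11 and 11 genes, and without lymphoma replicate 6 or 8 to 14, all higher, while the share of all genes called higher was 2.06%, 3.32% and 3.19% without Tcf1-/- replicates 1 to 3 and 4.32% and 4.12% without lymphoma replicates 6 and 8. Without the 4 arrays set apart, 34 genes were higher and none lower, 21 of them in complex I, whose median was 0.58. Of all genes 9.17% were then called higher and 8.61% lower, and among the 88 genes all 17 complex V differences were above 0. With Y-linked signal as a covariate 2 genes were called, both higher, and the complex I median was 0.56. Of all genes only 0.451% were then called higher and 2.36% lower. Of the macrophage markers 10 of 11, of the B cell markers 6 of 7 and of the NK cell markers all 4 were lower in lymphomas, whose summed macrophage signal was 912 to 9017 against 12245 to 51241 in Tcf1-/- thymi. The part of these cells in the complex I result was not tested.

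Tcf1-/- thymi without tumor were then compared with the Tcf1+/- controls, which asks what the loss of Tcf1 goes with before a tumor is found. Complex I was lower in each Tcf1-/- thymus. The mean over its 33 genes was below the control mean by 0.37, 0.24, 0.21 and 0.15 in the 4 Tcf1-/- thymi, whereas single controls ranged from -0.06 to 0.08 around that mean. Of the 33 complex I differences 29 were below 0, with a median of -0.22, against -0.01 for all genes tested. Over the 88 genes, 3 were lower and none was higher, where 4.7% of all genes tested were called lower and 10.1% higher. The share called lower, 3.41% of the 88 genes, was thus near the background, while the share called higher was below it. In 15 of the 88 genes, 10 of them in complex I, every Tcf1-/- thymus lay below every control, where 6.11% of all genes tested showed this.

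The 3 genes that fell are accessory subunits of complex I. Ndufv3 read 12.10, 12.07, 11.53, 11.78 and 11.63 in controls and 11.13, 10.93, 11.29 and 11.00 in Tcf1-/- thymi, a difference of -0.73 ± 0.17 (adjusted p = 0.015) with no overlap. Ndufs4, whose loss causes a mitochondrial encephalopathy in mice, read 10.13, 10.17, 10.94, 10.62 and 10.64 in controls and 9.53, 9.89, 9.59 and 10.10 in Tcf1-/- thymi. Its groups did not overlap by a small margin, and the difference was -0.72 ± 0.21 (adjusted p = 0.043). The call of Ndufs4 was lost in 6 of 9 fits that left out 1 array. Its other probe sets, all dimmer, gave -0.78 (adjusted p = 0.013), -0.74 (adjusted p = 0.073) and -0.07 (adjusted p = 0.96). Ndufb2 was tightly grouped among controls (10.87, 10.86, 10.81, 10.73 and 10.84) and fell by 0.66 ± 0.13 in Tcf1-/- thymi (adjusted p = 0.0064). Ndufb6 and Ndufa5 also had no overlap but missed the threshold, with differences of -0.58 (adjusted p = 0.063) and -0.43 (adjusted p = 0.17).

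The Tcf1-/- thymus with the lowest complex I mean, replicate 1, was also the one with the highest mean of the macrophage markers. That mean was 3.59, 2.70, 2.13 and 1.49 above the controls in replicates 1 to 4, and summed macrophage signal was 12245 to 51241 against 2409 to 5301 in controls. Of the B cell markers 6 of 7, of the NK cell markers 3 of 4 and of the dendritic cell markers 4 of 6 were higher in Tcf1-/- thymi, and 9 of 11 thymocyte markers were lower. The part of the cell mixture in the complex I result was not tested. Without the 4 arrays set apart, 9 of the 88 genes were lower and 1, Ndufaf4, was higher, where 11.8% of all genes were called lower and 10.3% higher. The complex I median was then -0.27.

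**Figure D3:**
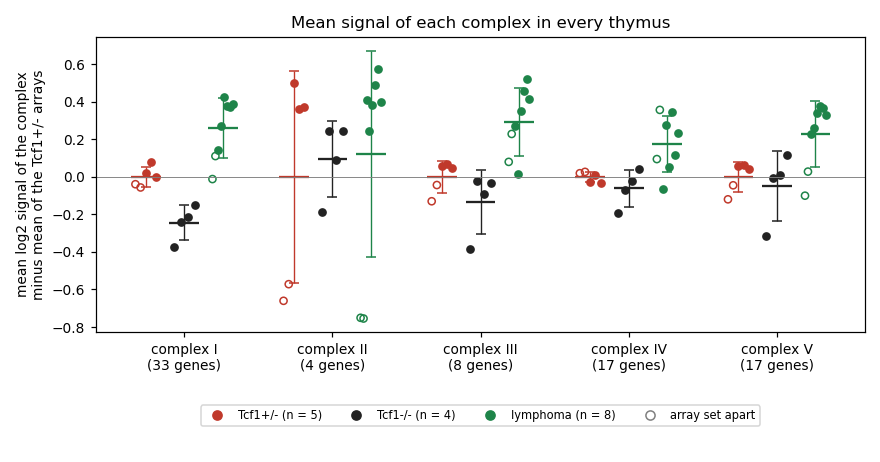
Mean log2 signal of the tested genes of each complex in every thymus, minus the mean of the Tcf1+/- arrays (vertical axis). Points are arrays, open circles the 4 arrays set apart, and bars the group mean with its SD. For complex I the 4 Tcf1-/- points (-0.37 to -0.15) lie below all controls and all lymphomas, and for complex II the open circles lie below the other points of their groups.

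Lymphomas were last compared with the controls, which differ by both genotype and tumor. Here 14 of 88 genes were higher (15.9%) and none was lower, where 8.49% of all genes tested were called higher and 4.21% lower. The median difference was 0.24, against 0.06 for all genes tested. In 8 of the 88 genes every lymphoma lay above every control, where 4.78% of all genes tested showed this. The calls fell in complex I (5 of 33), complex III (3 of 8), complex IV (1 of 17), complex V (2 of 17) and the associated genes (3 of 9). Cell markers also moved here. Lower in lymphomas than in controls were 7 of 11 thymocyte, 3 of 6 dendritic cell, 2 of 4 NK cell and 2 of 10 thymic epithelial markers. Of the B cell markers 1 of 7 was higher, and none of the 11 macrophage markers was called. The part of the cell mixture in these calls was not tested.

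Ndufa10, an accessory subunit of complex I related to nucleoside kinases, had the smallest adjusted p of them. It read 10.94, 11.22, 11.05, 11.09 and 11.14 in controls and 11.58 to 12.17 in lymphomas, with a median of 11.98. Every lymphoma exceeded every control, by 0.87 ± 0.13 on average (adjusted p = 0.00073), which is 1.83-fold. The Tcf1-/- thymi (11.05, 11.35, 11.31 and 11.45) lay closer to the controls, and Ndufa10 was also called against them, with a difference of 0.67 ± 0.14 (adjusted p = 0.0080). Without the 4 arrays set apart the difference from controls was 0.81.

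Ndufv1, Ndufc1 and Ndufa12 were called against both Tcf1-/- thymi and controls, with differences from controls of 0.63, 0.52 and 0.52. The same holds for Uqcr11 (0.78), Uqcr10 (0.64) and Uqcrq (0.48). Of these 6 only Uqcr11 was still called against controls without the 4 arrays set apart. Leaving out 1 array removed the call of Uqcrq in 10 of 13 fits and that of Uqcr10 in 8 of 13. Ndufb9 was called against controls (0.65 ± 0.20, adjusted p = 0.047), a call lost in 10 of 13 such fits. Its difference from Tcf1-/- thymi was of the same size (0.65, adjusted p = 0.067) and was called without the 4 arrays (0.82, adjusted p = 0.013). Ndufb2, Ndufv3 and Ndufs4 did not differ between lymphomas and controls past the threshold, with differences of 0.29, -0.06 and -0.25. Each pair of comparisons shares the arrays of a group, so no comparison is independent of the other 2.

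In complex V the small F1 subunit Atp5e read 12.27, 12.18, 11.79, 11.89 and 11.82 in controls and 12.28 to 13.22 in lymphomas, a difference of 0.70 ± 0.18 (adjusted p = 0.023). Atp5g1 rose by 0.68 ± 0.17 (adjusted p = 0.016). In both genes the lymphomas lay above every control. Atp5g1, Atp5g2 and Atp5g3 encode the same mature c subunit of the membrane ring from separate genes, and the other 2 differed by 0.35 and 0.03 and did not pass.

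Assembly factors of complex I showed the largest fold change among the calls against controls. Ndufaf6 read 6.22, 7.06, 7.79, 7.63 and 7.59 in controls, 7.12, 7.91, 7.86 and 8.28 in Tcf1-/- thymi and 7.91 to 8.94 in lymphomas. The lymphomas lay above every control by 1.24 ± 0.26 on average (adjusted p = 0.0075), or 2.36-fold, and by 0.99 without the 4 arrays set apart. Ndufaf4 rose by 0.83 and Ndufaf2 by 0.80, and neither was called without those arrays (adjusted p = 0.063 and 0.23).

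Between lymphomas and controls, arrays with the same mouse number correlated by 0.25 to 0.62 in 5 pairs, and numbers 1 and 2 are the arrays set apart in both groups. In only 2 of the 5 was the control closest to a lymphoma the one with its number. The labels do not say that equal numbers mark pairs. With the mouse number as a block, 6 genes were higher and 1 lower, where 6.43% of all genes were called higher and 6.54% lower, and the complex I median was 0.14. Without the 4 arrays set apart, 10 were higher and 1, Ndufaf3, was lower, against 5.43% and 6% of all genes. Of the 14 calls 6 were then kept, and 5 genes were called in addition. Leaving out any of the 5 controls, or lymphoma replicate 6, 7 or 8, left between 5 and 9 calls (9, 7, 6, 6 and 5 without controls 1 to 5, and 8, 8 and 7 without lymphomas 6 to 8). The share of all genes called higher in these fits was 5.59% to 7.04%, and without control 5 the 5 calls were no larger a share than the 5.97% of all genes.

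Several complex IV subunits exist as a ubiquitous and a tissue-restricted isoform. Cox7a1, the isoform of heart and skeletal muscle, read 5.09, 5.03, 5.62, 5.66 and 5.48 in controls and 4.69, 4.43, 4.58 and 5.48 in Tcf1-/- thymi. In lymphomas it ranged from 4.83 to 7.76 with a median of 6.84, and 7 of 8 lymphomas exceeded every Tcf1-/- thymus. Lymphoma replicate 5, at 4.83, was the exception. The difference from Tcf1-/- thymi was 1.78 ± 0.47 (adjusted p = 0.022). In 3 of the 4 Tcf1-/- thymi the signal was below 4.79, the highest of Ndufb4, which did not pass the filter, so no fold is given. The difference from controls was 1.20 (adjusted p = 0.071). Without the 4 arrays set apart it was 1.66 against Tcf1-/- thymi (adjusted p = 0.052).

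Muscle and brown fat cells express Cox7a1, so their markers are given beside it. Of 12 heart and skeletal muscle markers 6 passed the filter, and among these Mylpf rose by 0.93 from Tcf1-/- thymi to lymphomas and the other 5 were not called. The summed signal of the 12 was 457 to 713 in lymphomas, 327 to 461 in Tcf1-/- thymi and 644 to 700 in controls. Of 6 tested fat markers none was called in that comparison, and the summed fat signal reached 1966 in lymphomas and 3996 in Tcf1-/- thymi. The part of such cells in the Cox7a1 result was not tested.

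The ubiquitous isoform Cox7a2 read 13.39, 13.45, 13.39, 13.48 and 13.36 in controls, 12.80, 13.08, 13.25 and 13.24 in Tcf1-/- thymi and 13.56 to 13.78 in lymphomas. The 3 groups did not overlap anywhere, with Tcf1-/- lowest and lymphomas highest. Only the step from Tcf1-/- to lymphoma passed the test, at 0.60 ± 0.13 (adjusted p = 0.0067), and a second probe set gave 0.33. Cox7a2l, the relative that joins complexes III and IV, read 12.65 to 12.70 in controls, 12.48, 12.17, 12.23 and 12.08 in Tcf1-/- thymi and 12.56 to 13.83 in lymphomas.

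In the main fits of all arrays the other isoform pairs were not called in any of the 3 comparisons. With the array set as a block, Cox6a2 was called higher and Cox6b2 lower in Tcf1-/- thymi than in controls. That fit also called Cox4i1 and Cox6b1 higher in lymphomas than in Tcf1-/- thymi, and some other alternatives called Cox4i1 or Cox6b2. Cox4i1 differed by 0.39 between lymphomas and Tcf1-/- thymi (adjusted p = 0.051, called without the 4 arrays set apart) and its hypoxia-linked isoform Cox4i2 by 0.15. Cox6a1 and its muscle isoform Cox6a2 differed by 0.16 and -0.20. Cox6b1 differed by 0.32 (called without the 4 arrays set apart, at 0.41, adjusted p = 0.027) and the testis isoform Cox6b2 by 1.25. Cox6b2 was spread widely, from 5.28 to 8.95 in lymphomas and from 5.59 to 7.26 in Tcf1-/- thymi, so its difference did not pass (adjusted p = 0.25). Cox8a, Cox8b and Cox8c differed by -0.32, -0.17 and -0.02, and Ndufa4 and Ndufa4l2 by -0.21 and 0.04.

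**Figure D4:**
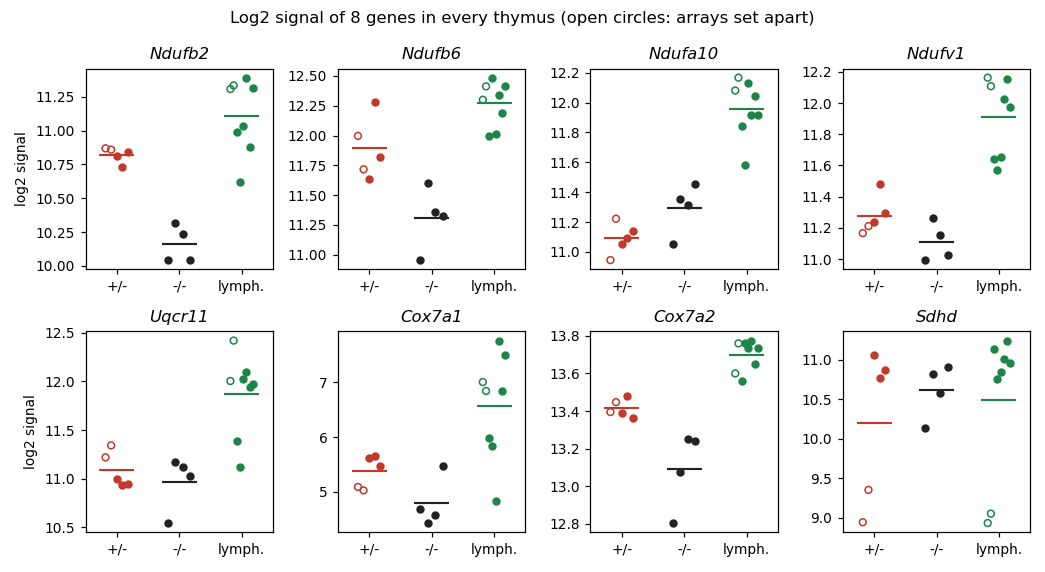
Log2 signal of 8 genes in every thymus (vertical axes, each with its own range), by group: Tcf1+/- (n = 5), Tcf1-/- (n = 4) and lymphoma (n = 8). Points are arrays, open circles the 4 arrays set apart, bars the group means. Cox7a1 in lymphomas ranges from 4.83 to 7.76, and the open circles of Sdhd lie between 8.94 and 9.36.

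Complex II differed from the other complexes in how its genes varied. In the fits of all arrays without a covariate or block no subunit was called by limma in any comparison, and none had an unadjusted p under 0.05. With the array set as a block Sdhc was called lower in Tcf1-/- thymi than in controls (-0.49) and higher in lymphomas than in Tcf1-/- thymi (0.62), and Sdha lower in lymphomas than in controls (-0.30). With the Gapdh 3′ minus 5′ difference as a covariate Sdhd was called higher in lymphomas than in either other group (0.64 and 0.78). Sdhd, a membrane anchor, read 8.95, 9.36, 11.06, 10.77 and 10.87 in controls and 10.14, 10.82, 10.58 and 10.91 in Tcf1-/- thymi. The lymphomas ranged from 8.94 to 11.24 with a median of 10.91. The 4 low values were those of the arrays set apart, and all other arrays lay between 10.14 and 11.24.

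Sdhc, the other anchor, behaved alike, with 9.14 and 9.19 in the controls set apart and 10.45 to 10.65 in the other 3. The arrays set apart were lower than the rest of their group by a median of 1.08 over the 4 genes in controls and by 1.07 in lymphomas. The corresponding medians for complex I were 0.06 and 0.22. Sdhb, the iron-sulfur subunit, was the least affected, with gaps of 0.20 and 0.55, and Sdha, the flavoprotein, had gaps of 0.76 and 0.93. Without these arrays the complex II median of Tcf1-/- against control turned from 0.10 to -0.30, and Sdhc was lower by 0.49 ± 0.11 (adjusted p = 0.020), where it had differed by 0.07 with all arrays. The complex II median of lymphoma against Tcf1-/- was 0.04 with all arrays and 0.36 without them. Such gaps were not confined to complex II, as Ndufs1 had gaps of 1.11 and 1.87. Arrays set apart minus the rest gave -0.89 and -1.33 for Uqcrfs1 and -0.61 and -1.54 for Atp5c1. For the 9 associated genes the medians were -0.73 and -0.49, and for complex V -0.19 and -0.35. The arrays set apart had the highest Gapdh 3′ to 5′ difference. Its part in the gaps was not tested.

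Across arrays the genes of a complex varied together only weakly. The median pairwise correlation over all 17 arrays was 0.15 in complex I, 0.10 in complex III, 0.10 in complex IV and 0.29 in complex V, against 0.01 for a sample of 2752 genes. Complex II had 0.76 with all arrays and 0.23 without the 4 set apart, and complex III had 0.44 without them. The mean of its group was subtracted from each gene first. These correlations thus leave out the differences between groups but include the shared properties of an array.

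The other mitochondrial gene groups measured on the same arrays differed in how far they moved. Of 76 mitochondrial ribosomal protein genes, whose products translate the mitochondrially encoded subunits of complexes I, III, IV and V, 23 (30.3%) were higher in lymphomas than in Tcf1-/- thymi and none was lower, where 6.34% of all genes were called higher, with a median of 0.47. Mrpl47 rose by 1.09, Mrpl41 by 0.99 and Mrps9 by 0.95. Against controls 17 of 76 (22.4%) were higher, where 8.49% of all genes were, and between Tcf1-/- thymi and controls 2 were lower, Mrpl9 and Mrpl43.

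Of 47 genes for respiratory complex assembly factors, a list that includes the Ndufaf genes, 4 (8.51%) were higher in lymphomas than in Tcf1-/- thymi, near the 6.34% of all genes, among them Cox10 (0.98), needed for the heme of complex IV, and Bcs1l (0.45), a complex III assembly factor. Against controls 9 of 47 (19.1%) were higher, where 8.49% of all genes were. Of 17 genes of pyruvate dehydrogenase and the tricarboxylic acid cycle none was called in lymphomas against Tcf1-/- thymi, although 15 of 17 differences were above 0. Suclg2, a subunit of succinyl-CoA ligase, was higher than in controls both in Tcf1-/- thymi (0.90) and in lymphomas (1.23). Of 6 carriers the adenine nucleotide carrier Slc25a4 rose by 0.58 from Tcf1-/- thymi to lymphomas, and neither of the 2 tested genes of cytochrome c and c1 was called.

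Of 16 regulators of mitochondrial transcription and biogenesis none was called in lymphomas against Tcf1-/- thymi. In Tcf1-/- thymi against controls 3 were lower and 1 higher. Nrf1, which encodes nuclear respiratory factor 1, fell by 0.73 ± 0.21 (adjusted p = 0.038), Yy1 fell by 0.56 ± 0.14 (adjusted p = 0.019) and Mterf2 fell by 0.96, while the coactivator gene Pprc1 rose by 1.03.

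Promoters were looked at because genes of this system are known to share binding sites for nuclear respiratory factor 1 (NRF1), for ETS-family factors such as GABP, also called NRF2, and for YY1. RefSeq promoter sequences, 250 bases before to 50 after a gene's start (GRCm38.p6), matched 74 of the 90 genes. The NRF1 word, searched as GCGC, A, any base and GCGC in a row, was present in 17 of 74 (23%), against 5.19% of the 27025 genes with a promoter. The ETS word CCGGAAG was present in 19 (25.7%), against 9.93%, and the YY1 word ATGGCGG in 11 (14.9%), against 4.69%. Both strands were read and words of different factors may overlap. Of 10 words counted after the data had been seen, the E-box CACGTG had like shares in both sets (8.11% and 8.09%), and TATAAA was present in 10.8% of the 74 genes and 15.7% of all.

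Of the 20 genes with a promoter that were called higher in lymphomas than in Tcf1-/- thymi, 1 held the NRF1 word, 5 the ETS word and 2 the YY1 word. Of the other 54 genes with a promoter, 16 held the NRF1 word and 14 the ETS word. The median difference between lymphomas and Tcf1-/- thymi was 0.29 for genes with the NRF1 word and 0.47 for genes without it, and 0.40 and 0.44 for the ETS word. A stricter form of the NRF1 word, with T as its free base, was present in 6 genes. Its medians were 0.46 with it and 0.39 without it. A shorter form, present in 11 genes, gave 0.37 and 0.44. The direction for the NRF1 word thus depended on the form searched. A word is a description of the sequence and not a binding site.

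The 120 bases before the start of 6 genes are given, on the strand of the gene, 5′ to 3′, with NRF1, ETS and YY1 words in capitals. Ndufa5 (chr6:24527691-24527810, minus strand, the upstream of its 2 starts), Ndufs3 (chr2:90904722-90904841, minus strand) and Uqcr11 (chr10:80406822-80406941, minus strand) were higher in lymphomas than in Tcf1-/- thymi. Sdha (chr13:74350241-74350360, minus strand) and Sdhd (chr9:50603850-50603969, minus strand) were not called in the fits of all arrays without a covariate or block. Cox7a1 (chr7:30184051-30184170, plus strand), also called higher, holds none here.
Ndufa5: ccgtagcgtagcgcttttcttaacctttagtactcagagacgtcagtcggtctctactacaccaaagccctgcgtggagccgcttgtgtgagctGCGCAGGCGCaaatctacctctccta
Ndufs3: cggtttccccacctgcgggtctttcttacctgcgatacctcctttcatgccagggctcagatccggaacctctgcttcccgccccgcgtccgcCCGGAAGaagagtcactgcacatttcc
Uqcr11: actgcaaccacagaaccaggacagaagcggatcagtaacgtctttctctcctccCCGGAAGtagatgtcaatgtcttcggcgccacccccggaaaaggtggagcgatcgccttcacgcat
Sdha: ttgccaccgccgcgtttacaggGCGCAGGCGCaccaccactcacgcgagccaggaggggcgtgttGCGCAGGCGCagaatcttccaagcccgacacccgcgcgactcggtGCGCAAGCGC
Sdhd: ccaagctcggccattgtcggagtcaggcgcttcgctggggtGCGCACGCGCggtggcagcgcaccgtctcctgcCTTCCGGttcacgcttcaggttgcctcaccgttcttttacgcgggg
Cox7a1: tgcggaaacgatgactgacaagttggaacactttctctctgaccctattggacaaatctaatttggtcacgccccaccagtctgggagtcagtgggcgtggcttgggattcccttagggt
Ndufa5 has 1 NRF1 word starting at base -26, counted back from the start, and its other start, not shown, has a YY1 word at -20. Ndufs3 has an ETS word at -27 and Uqcr11 an ETS word at -66. Sdha has 3 NRF1 words, at -98, -55 and -10. Sdhd has an NRF1 word at -79 and an ETS word, read on the other strand, at -46. Sdha and Sdhd differed between lymphomas and Tcf1-/- thymi by -0.30 and -0.12, and Ndufa5, Ndufs3 and Uqcr11 by 1.06, 0.53 and 0.90. The values of Sdha and Sdhd depended on the 4 arrays set apart. Without these arrays they were -0.07 and 0.38, neither of them called, and Ndufa5 and Uqcr11 differed by 0.96 and 0.79.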

How the data were processed

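RNA of 17 mouse thymi was measured on Affymetrix arrays. The authors deposited log2 values per probe set, and the submitters' processing notes name RMA; whether all arrays were normalized together is not given in the sources used here. From the 45101 probe sets, those with a single symbol in the platform annotation were kept, and the brightest on average stood for its gene. The filter on low signal kept a gene if it exceeded the 40th percentile of 4 or more arrays, and each pair of groups was then fitted separately with limma 3.58.1 in R 4.3.3, and p-values were adjusted by the Benjamini-Hochberg method. The code was tested on simulated data. Genes were named by a rule on complex, size and isoform family. The members and lists were chosen with earlier results of these data known. Replicates are separate mice, whose number limits the precision. Alternatives covered normalization, filter, probe set choice, covariates, blocks and left-out arrays. Probe sets ending in x or s can bind related transcripts or pseudogenes. The targeted gene, Tcf7, was not analysed here.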

Additional observations from a re-analysis of the deposited data

Results flagged for a closer look

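In 129 sets of values, a named gene or a complex mean in 1 group, the lowest or highest array was set against the others of its group. It was far from the others in 2 sets (1.55%), and chance alone gives about 1 in 20. Uqcr10, a small complex III subunit, read 10.94 in lymphoma replicate 4, where the next lowest lymphoma read 11.70. Cox4i2, the hypoxia-linked complex IV isoform, read 5.21 in lymphoma replicate 7, where the next lowest read 5.60.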

How the results depend on the processing

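Of 340 medians of a complex recomputed under the alternatives, 333 moved by less than the spread between arrays. Some of these changed sign, as in complex II, where the spread was wide. Another 4 moved by more and kept their sign, and 3 moved by more and changed sign. Of 2923 differences of named genes, 191 were no longer past the threshold, 85 passed it in addition and 3 changed sign in a call. Another 121 differences changed sign without a call on either side. No alternative called any of the 88 genes lower in lymphomas than in Tcf1-/- thymi.

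For Tcf1-/- against control, with 3 calls, the count was 1 without Tcf1-/- replicate 2, 5 without Tcf1-/- replicate 4, 10 without the 4 arrays set apart, 13 with the array set as a block, 11 with the Gapdh 3′ minus 5′ covariate, 6 with the Y-linked covariate, 7 after quantile normalization and 7 with an intensity trend. All were lower, except 1 without the 4 arrays and 2 with the block. In the same order, 2.97%, 4.31%, 11.8%, 13.2%, 10.2%, 6.98%, 6.94% and 4.49% of all genes were called lower. The methods' Mann-Whitney U test (exact, two-sided), adjusted by Benjamini-Hochberg, called 0 of all genes tested, with a smallest adjusted p of 0.092. At the methods' threshold, an unadjusted p under 0.05, it gave 1 higher and 17 lower of the 88 genes and 13.3% higher and 8.37% lower of all genes. Limma without adjustment also gave 1 higher and 17 lower, and 2205 higher and 1355 lower of the 13756 genes tested. Leaving out 1 array gave 1 to 5 calls, where 2.97% to 4.77% of all genes were called lower. The complex IV median ranged from -0.084 (without Tcf1-/- replicate 4) to 0.086 when 1 array was left out, and turned from 0.060 to -0.021 with the filter at the 60th percentile and -0.10 with the mean of probe sets, and Sdhc turned to -0.49 both without the 4 arrays and with their set as a block.

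For lymphoma against Tcf1-/-, with 22 calls, leaving out 1 array gave 9 to 26 (9, 11 and 11 without Tcf1-/- replicates 1, 2 and 3, and 14 without lymphoma replicate 6 or 8). The share of all genes called higher ranged from 2.06% to 7.55% in these fits. The count was 34 without the 4 arrays set apart, 39 with the array set as a block and 2 with the Y-linked covariate. Of all genes, 9.17%, 10.6% and 0.451% were then called higher. Lymphoma replicates 1 and 2 and Tcf1-/- replicate 1, left out together after the data had been seen, left 17 calls, with 3.8% of all genes called higher. The complex II median became 0.52 and Sdhd turned to 0.64 with the Gapdh covariate, and the complex IV median became 0.28 with the Y-linked covariate.

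For lymphoma against control, with 14 calls, leaving out 1 array gave 5 to 15. Of the 13756 genes tested, 769 to 1276 were called higher in these fits, against 1168 in the main fit. The count was 29 with the array set as a block, 25 with the Gapdh covariate, 7 with the Y-linked covariate and 7 after quantile normalization. In the same order, 2051, 2133, 852 and 1002 of all genes were called higher, so calls over all genes moved in the same direction. Limma without adjustment gave 29 higher and 1 lower, and 2318 higher and 1199 lower of the 13756 genes tested. The cause of these changes was not tested.

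With the mouse number as a replicate block, only numbers found in both groups were kept, so part of the lymphomas were left out. The numbers kept were 4, 4 and 5 in the 3 comparisons in this order, and calls were 0, 0 and 7. The share of all genes called was 6.98%, 0.334% and 6.43% higher and 2.16%, 3.91% and 6.54% lower. The complex I median was 0.37 for lymphoma against Tcf1-/- and 0.14 for lymphoma against control. Mouse numbers correlated from -0.29 to 0.12 between Tcf1-/- and control and from -0.19 to 0.09 between lymphoma and Tcf1-/-. The labels do not say that equal numbers mark pairs in any comparison. Limma without adjustment gave 45 higher and 0 lower for lymphoma against Tcf1-/-, and 2216 higher and 1845 lower of the 13756 genes tested.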
